A study of Mus musculus with 3 samples.

Results

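The genes described here encode the parts of cilia, and they were read in cultures labelled as purified interneurons of the medial ganglionic eminence (MGE), the embryonic ventral forebrain region that produces many GABA-releasing interneurons. Members were the probe sets whose single gene symbol names a primary cilium or motile axoneme protein: intraflagellar transport (Ift), Bardet-Biedl (Bbs), Arl, nephrocystin (Nphp), tectonic (Tctn), Cc2d2a, Rpgrip1l and Mks1 genes, and axonemal dynein (Dnah), radial spoke (Rsph), Spag and cilia- and flagella-associated (Cfap) genes. The choice went by symbols and its rule used no measured value, but it was made with earlier results of these data known. It gave 83 of 41345 probe sets, which stand for 78 of the 22180 genes with a probe set of their own. Of these, 29 were primary cilium genes, 45 were motile axoneme genes, and 4 Cfap genes (Cfap20, Cfap36, Cfap97 and Cfap410) were kept apart because their products are not limited to motile cilia. Among others, Arl6, Arl13b, Tctn1, Dnah3, Dnah12, Cfap54 and Cfap157 had no probe set assigned to them alone and were not measured.

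There were 3 biological replicate cultures, 1 array each, in a single group. All came from wild-type (WT) CD-1 embryos at embryonic day 13. Dissociated MGE cells were plated on laminin and poly-D-lysine at 59000 cells per square centimetre in Neurobasal with B27, glutamine and FGF2 at 40 ng/ml, received cytosine arabinoside (AraC, which kills cells that replicate DNA) at 1 µM on day 5 for 24 h, and were kept 2 further days after its removal. No second group was analysed here, so the values show which ciliary genes gave signal above background and how far the cultures differed. Values are log2 signals, given as mean ± SD over n = 3 cultures, and the number of arrays limits their precision. Nothing in the labels says whether the cultures shared a dissection day, so the spread is that between these 3 samples.

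The primary cilium is a single non-moving projection that most neurons and progenitors carry. Intraflagellar transport (IFT) trains build it, the transition zone gates its base, and the BBSome carries membrane proteins out of it, and Hedgehog signals and some neuropeptide receptors act through it. Motile cilia, which ependymal and choroid plexus cells carry in the brain, add dynein arms, radial spokes and a central microtubule pair that make the axoneme beat. IFT serves both kinds.

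Background was a line at 6.26 log2 units, the 95th percentile of 1440 chemosensory receptor probe sets (olfactory, vomeronasal and bitter taste), whose genes brain cells scarcely use. The median of those probe sets was 4.37, so a mean under the line can still exceed that of most of them. A gene was called above background when limma's 1-sided moderated test put the mean of a probe set over the line at a Benjamini-Hochberg adjusted p under 0.05, over all 22081 probe sets tested. Checked against the labelled cell type, 8 of 8 interneuron markers were above background (Gad1, Gad2, Slc32a1, Lhx6, Nkx2-1, Sst, Dcx and Tubb3). Of markers of other cells, 8 of 8 progenitor, 6 of 7 astrocyte, 6 of 6 oligodendrocyte lineage, 5 of 6 endothelial and 3 of 6 microglial genes were called, beside 63.4% of all genes tested. When more than 1 log2 unit over the line was asked for, 7 progenitor, 5 astrocyte and 6 oligodendrocyte lineage markers passed. The endothelial and microglial markers, whose highest means were 7.36 and 7.20, did not. The array measured each culture whole, so which cells gave a signal cannot be told, and fewer cells of a type and less RNA per cell cannot be told apart.

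Primary cilium genes and motile axoneme genes differed in how often they were detected. All 29 measured primary cilium genes were above background, against 14 of 45 motile axoneme genes (31.1%). Over all 20751 genes tested the share was 63.4%, so the primary share lay above that of genes in general and the motile share below it. With a margin, the test asking for more than 1 log2 unit over the line, 24 of 29 primary genes (82.8%) and 2 of 45 motile genes (4.44%) passed, beside 47.6% of all genes. The median level was 8.23 for primary genes and 7.34 for all genes tested, and the median of motile genes, that of Cfap44, was at -0.26 from the line, with the limit that probe sets of different genes bind with different strength and do not share 1 scale. The 4 unassigned Cfap genes, which are in neither count, were all above background, also with the margin. Placed with the motile genes, they would raise both motile counts. Of the 31 motile genes not called, 26 lay below the line in every culture. Without the IFT genes, which motile cilia use as well, 15 of 15 primary genes were called, and without the Cfap genes 5 of 20 motile genes were. The motile count rested on the height of the line, being 2 at the 99th percentile (49.9% of all genes) and 22 at the 90th (72.5%) while the primary count was 26 and 29. Primary and motile counts stayed at 29 and 14 after quantile scaling (63.6% of all genes called), median centring (63.5%), averaging of a gene's probe sets (62.8%) and removal of dim probe sets (65.8%). Asking only that every culture exceed the line gave 29 and 15 (64.5%). Leaving out a culture gave 28 and 14 without culture 1 (62.5%), 28 and 11 without culture 2 (61.5%), and 29 and 10 without culture 3 (60.9%).

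**Figure D1:**
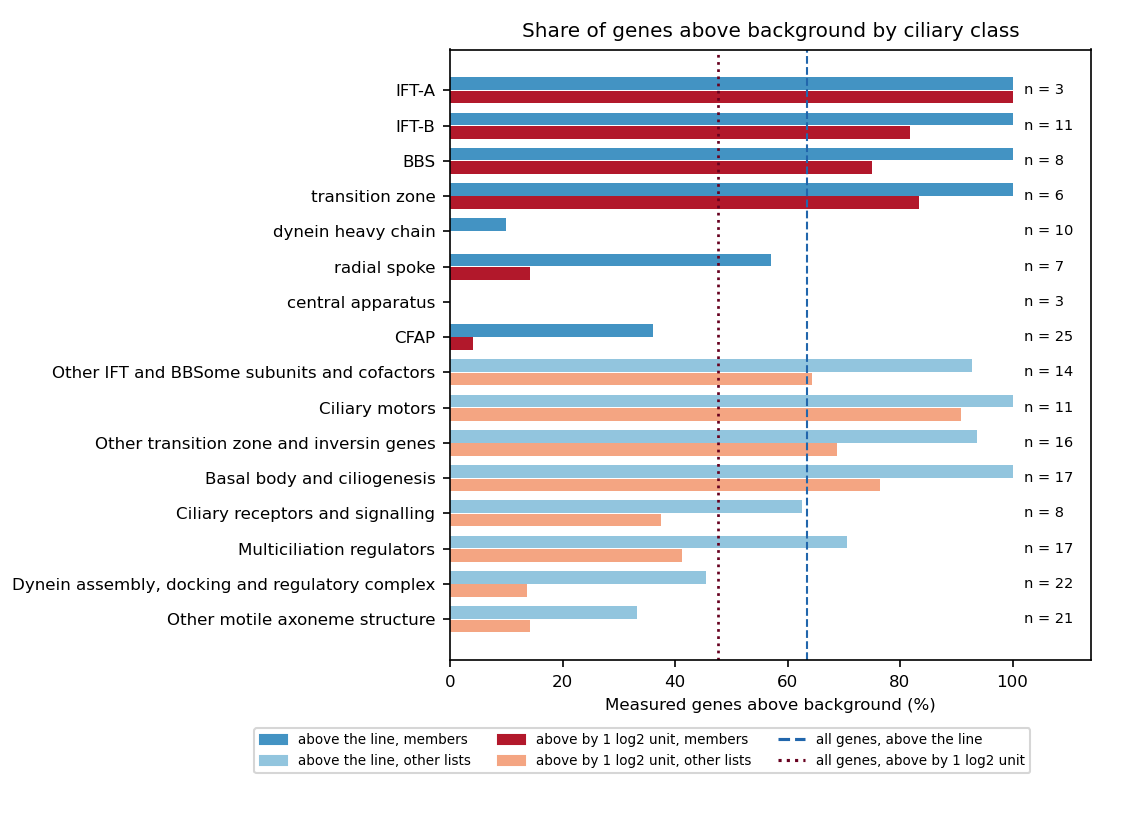
Bars give the share of measured genes (%) above the background line and above it by more than 1 log2 unit, for each class of members (Arl3 alone in its class and the unassigned Cfap genes left out) and for lists of other ciliary genes, with the number of genes beside each. The vertical lines mark all genes tested, at 63.4% and 47.6%. The 4 primary classes reach 100%, and dynein heavy chains and the Spag genes of the central apparatus have 1 of 10 and 0 of 3.

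The promoters of both kinds of gene held the X-box more often than promoters in general. The X-box is the palindromic site bound by RFX transcription factors, known from the control of ciliary genes. RefSeq windows on GRCm38.p6, from 250 bases before to 50 bases after each annotated start, were available for 68 of the 78 genes and were searched on both strands for the X-box, with at most 3 bases between its arms, and for its 6-base core GTTGCC, which overlaps many X-box matches. An X-box was found for 11 of these 68 genes (16.2%), beside 314 of 15704 tested genes with a window (2.00%) and 208 of 10270 genes above background (2.03%). By window the shares were 14.9% for members and 1.53% for all 32851 windows in the table. The primary genes had 4 of 26 (15.4%), the motile genes above background 3 of 12 and those not above background 4 of 27 (14.8%). The core was found for 12 of 26 primary genes (46.2%) and 12 of 39 motile genes (30.8%), beside 14.8% of tested genes and 12.5% of all windows. None of the 10 dynein heavy chain genes had an X-box, and Dnah10 had the core. A match is a description of the letters, not a bound site. A selection of the matches that lie upstream of the start, from 6 genes, is shown 5′ to 3′ on the strand of the gene, with the X-box in capitals. They let genes with and without signal be set side by side, and not every upstream match of these genes is shown.
Tctn3 (chr19:40612347-40612383, - strand): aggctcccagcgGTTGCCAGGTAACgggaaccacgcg
Ift57 (chr16:49699195-49699232, + strand): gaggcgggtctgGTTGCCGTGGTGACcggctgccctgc
Cfap298, farther match (chr16:90935012-90935049, - strand): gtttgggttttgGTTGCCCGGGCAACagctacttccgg
Cfap298, nearer match (chr16:90934892-90934930, - strand): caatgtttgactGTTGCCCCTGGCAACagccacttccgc
Cfap45 (chr1:172521099-172521129, + strand): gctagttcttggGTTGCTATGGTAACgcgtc
Cfap44 (chr16:44394760-44394797, + strand): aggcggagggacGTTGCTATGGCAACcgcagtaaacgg
Spag16 (chr1:69826855-69826892, + strand): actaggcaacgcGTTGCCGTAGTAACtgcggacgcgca
Ift57, Tctn3, Cfap298 and Cfap45 were above background, and Cfap44 and Spag16 were not. Matches were also found for Bbs1, Tctn2, Rsph3b, Cfap58 and Cfap99, and those of Tctn2, Cfap58 and Cfap99 lie upstream of the start too. Promoters also differed in CpG content: the observed over expected CpG ratio exceeded 0.6 in 23 of 28 primary windows (82.1%) and 21 of 43 motile windows (48.8%), against 67.9% for genes above background and 51.0% for all genes tested. Among dynein heavy chain windows it did so in 2 of 10.

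**Figure D2:**
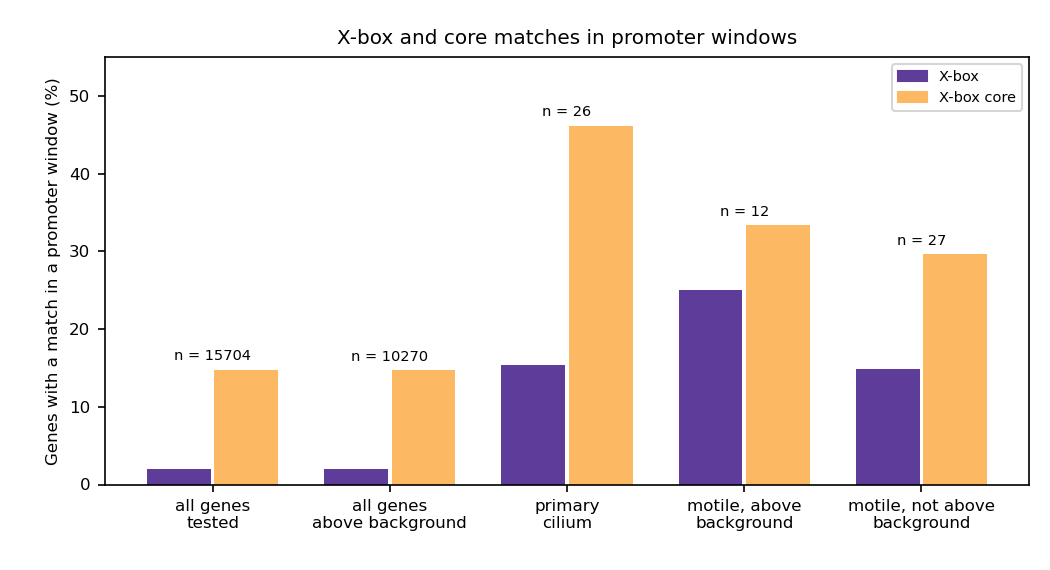
Bars give the percentage of genes with at least 1 X-box (purple) or X-box core GTTGCC (orange) in a promoter window, with the number of genes that had a window above each pair. X-box shares are 15.4% for primary and 14.8% for motile genes not called, beside 2.00% of tested genes and 2.03% of genes above background.

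Both IFT complexes were above background in every measured gene with an Ift symbol, beside 63.4% of all genes tested (47.6% with the margin). IFT genes under other symbols are described further below, where Ttc30a2 was not called. IFT-A, which carries cargo back from the tip and brings membrane proteins in, had 3 of 3 Ift genes called, all also with the margin. Ift122, a core subunit, read 7.95, 7.99 and 7.86 (7.94 ± 0.07). Ift140, also of the core, read 7.86, 7.84 and 7.84 (7.85 ± 0.0092), and the peripheral subunit Ift43 7.39, 7.78 and 7.57 (7.58 ± 0.20). Culture 2 was highest for Ift122 and Ift43, and the 3 cultures of each gene lay well over the line.

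IFT-B, the larger complex that moves cargo toward the tip, had 11 of 11 Ift genes called (beside 63.4% of all genes). With the margin 9 of 11 passed (81.8%, beside 47.6%). Ift20, a subunit that also resides at the Golgi, read 11.58, 11.69 and 11.68 (11.65 ± 0.06). Ift22, a small GTPase of the complex, read 9.90, 10.12 and 9.89 (9.97 ± 0.13). Ift57, whose promoter letters are shown above, read 9.37, 9.78 and 9.30 (9.48 ± 0.26), with culture 2 over the other two by more than 0.4. Ift46, a core subunit, read 9.30, 9.29 and 9.17 (9.25 ± 0.07). Ift88, the subunit whose loss is the usual way to remove cilia in mice, read 8.19, 8.40 and 8.31 (8.30 ± 0.10), and Ift172, the largest subunit, 8.17, 8.26 and 8.21 (8.22 ± 0.05). Ift27, a Rab-like GTPase that helps the BBSome leave the cilium, read 8.05, 8.06 and 7.98 (8.03 ± 0.04). Ift52 and Ift81 lay at 8.92 ± 0.01 and 8.28 ± 0.18. Every one of these read above 7.90 in all cultures.

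Ift74 and Ift80 were the primary genes nearest to background. Ift74, which with Ift81 binds tubulin, read 6.94, 6.81 and 6.36 (6.70 ± 0.30), and its call (limma, adjusted p = 0.0215) was lost without culture 1 (adjusted p = 0.09) and without culture 2 (adjusted p = 0.203). It had the largest SD of the primary genes, with culture 3 the lowest. Ift80, a subunit lost in a human skeletal ciliopathy, read 6.82, 6.62 and 6.65 (6.70 ± 0.11) (adjusted p = 0.002). Neither passed at the 99th percentile or with the margin.

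The Bbs genes were above background in 8 of 8 cases (beside 63.4% of all genes), 6 with the margin (75%, beside 47.6%). Among BBSome subunits, Bbs9 read 9.26, 9.22 and 9.22 (9.23 ± 0.02) and Bbs1 9.15, 9.25 and 9.23 (9.21 ± 0.05). Bbs4 read 8.31, 8.58 and 8.47 (8.46 ± 0.14), Bbs2 8.36, 8.18 and 8.36 (8.30 ± 0.10) and Bbs7 7.98, 8.35 and 7.89 (8.07 ± 0.25). For Bbs2 culture 2 was the lowest, whereas for Bbs4 and Bbs7 it was the highest. Bbs5, a subunit that binds membrane lipids, lay at 7.66 ± 0.20. The lowest were Bbs12 at 7.38 ± 0.10 and Bbs10 at 7.10 ± 0.0030, chaperonin-like genes whose products help the BBSome assemble. These were the 2 that missed the margin. Mkks, another chaperonin-like gene, which the choice of members did not match, lay higher (8.18 ± 0.16) and was called. Arl3, the small GTPase that releases lipid-modified cargo inside the cilium, read 11.17, 11.34 and 11.31 (11.27 ± 0.09).

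The transition zone, the gate at the ciliary base, had 6 of 6 measured genes called (beside 63.4% of all genes). With the margin 5 passed (83.3%, beside 47.6%). Rpgrip1l, a scaffold of the gate, read 8.79, 8.92 and 8.76 (8.83 ± 0.08). Tctn3, a tectonic of the MKS complex, read 8.31, 8.56 and 8.34 (8.40 ± 0.14) on 1 of its 2 probe sets, and the other lay at 6.21 ± 0.18 and was not called. Cc2d2a and Mks1, further MKS complex proteins, read 8.37, 8.22 and 8.09 (8.23 ± 0.14) and 8.03, 7.82 and 8.01 (7.95 ± 0.12). Tctn2 lay at 7.93 ± 0.11. Nphp4, of the nephrocystin complex, read 7.25, 7.70 and 7.52 (7.49 ± 0.23) and was the only gene of the class to miss the margin.

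**Figure D3:**
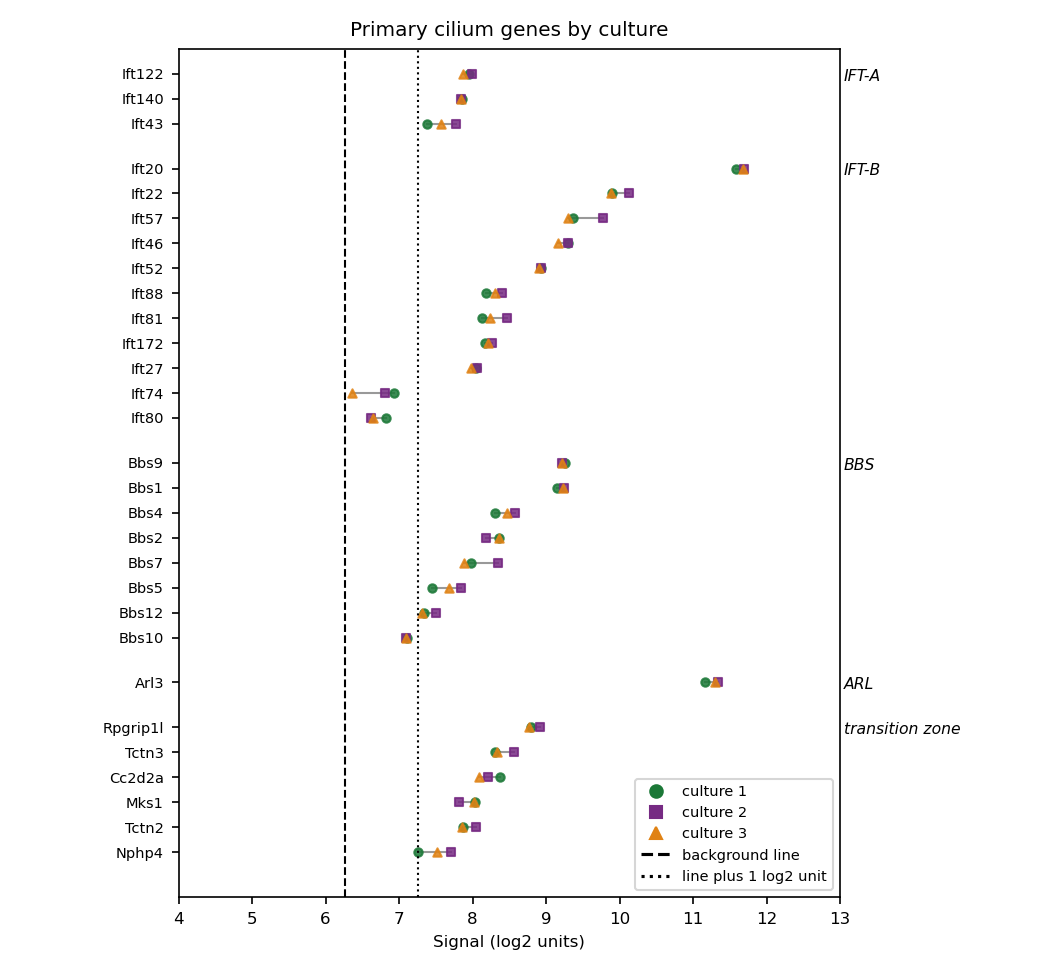
Signal (log2 units) of the 29 primary cilium genes in cultures 1 (circles), 2 (squares) and 3 (triangles), grouped by class, with a grey bar over the range of each gene. All 87 points lie right of the dashed background line at 6.26, and Ift74 and Ift80 are the only IFT genes left of the dotted line 1 log2 unit higher.

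Axonemal dynein heavy chains, the motors of ciliary beating, were not called above the line, with the exception of Dnah9. Of 10 member genes, 1 was called (10%, beside 63.4% of all genes) and none with the margin (beside 47.6%). At the 90th percentile 4 of 10 were called, beside 72.5% of all genes. Dnah9, an outer arm motor, read 6.50, 6.45 and 6.46 (6.47 ± 0.03) (limma, adjusted p = 0.0101), and its call was lost without culture 2 (adjusted p = 0.0508) and without culture 3 (adjusted p = 0.0509). Dnah5, the outer arm chain most often mutated in primary ciliary dyskinesia, read 5.89, 5.61 and 5.89 (5.80 ± 0.16), and all 3 cultures lay below the line. Dnah8 (5.36 ± 0.06), Dnah14 (5.39 ± 0.05) and Dnah17 (5.59 ± 0.09) were the lowest members of the class. Dnah7a, whose symbol the choice of members did not match, lay lower (4.73 ± 0.27) and was not called. Dnah1, an inner arm chain, lay at 6.28 ± 0.05 with 2 cultures over the line and was not called. The dynein intermediate chains of the outer arm are on the array under older symbols that the choice of members did not match: Dnaic1 read 7.01, 7.09 and 6.94 (7.02 ± 0.07) and was above background (adjusted p = 0.000163), and Dnaic2 read 6.62, 6.13 and 6.47 (6.41 ± 0.25) and was not (adjusted p = 0.198).

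For the central apparatus, the microtubule pair and its projections at the centre of the axoneme, the class held only Spag6, Spag16 and Spag17. Of these, 0 of 3 were called, beside 63.4% of all genes, which does not speak for the whole structure. Spag16 read 5.62, 5.85 and 5.81 (5.76 ± 0.12), Spag17 5.60, 5.47 and 5.46 (5.51 ± 0.08) and Spag6 5.53, 5.45 and 5.56 (5.51 ± 0.05). All 3 genes lay below the line in every culture, so limma's 1-sided test could not give an unadjusted p under 0.05 for any. None was called at the 90th percentile, beside 72.5% of all genes.

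Of 7 radial spoke genes, 4 were called (57.1%, beside 63.4% of all genes) and 1 with the margin (14.3%, beside 47.6%). Rsph3a, of the spoke stalk, read 7.99, 7.94 and 7.59 (7.84 ± 0.22), and its second probe set, at 7.02 ± 0.11, was called too. Rsph3b, a close copy of Rsph3a whose probes may share signal with it, read 6.95, 6.93 and 7.08 (6.99 ± 0.08). Among spoke head genes, Rsph9 read 7.06, 7.25 and 7.07 (7.13 ± 0.11) and was called, Rsph6a, known from sperm, read 6.83, 6.39 and 6.58 (6.60 ± 0.22) and was called except without culture 3 (adjusted p = 0.0939), and Rsph1 (6.19 ± 0.06) was not. Rsph4a, the spoke head gene of airway and ependymal cilia, read 4.72, 5.87 and 5.54 (5.38 ± 0.59), below the line in each culture, yet with culture 1 more than 0.8 under the others. Rsph14 lay at 4.40 ± 0.06.

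Among the Cfap genes of the motile axoneme 9 of 25 were above background (36%, beside 63.4% of all genes) and 1 with the margin (4%, beside 47.6%). Cfap300, a factor in the assembly of dynein arms, read 7.97, 8.38 and 8.02 (8.12 ± 0.23) and was that 1. Cfap298, also needed for dynein arms, read 7.20, 7.24 and 7.20 (7.21 ± 0.02). Cfap100, of the complex that tethers inner arms, read 7.33, 6.83 and 7.17 (7.11 ± 0.25), and its partner Cfap73 6.49, 6.59 and 6.70 (6.59 ± 0.11), whose call was lost without culture 2 (adjusted p = 0.0667). Cfap69 lay at 6.96 ± 0.18 and Cfap65 at 6.58 ± 0.08. Cfap52 and Cfap45, proteins of the microtubule lumen, lay at 6.56 ± 0.09 and 6.47 ± 0.06, and the call of Cfap45 was lost without culture 3 (adjusted p = 0.0674). The lowest were Cfap299 (4.36 ± 0.13), Cfap43 (5.07 ± 0.01) and Cfap99 (5.26 ± 0.14). Cfap44, which acts with Cfap43 to tether inner dynein, read 6.37, 5.73 and 5.90 (SD 0.33), over the line in culture 1 alone, and Cfap47 6.08, 5.92 and 5.59 (5.87 ± 0.25), under it throughout.

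Cfap206, which anchors a radial spoke to the axoneme, differed most between cultures. It read 6.59, 8.82 and 8.20 (7.87 ± 1.15), a range of 2.23 log2 units. Of the 20751 genes tested, 2 had a larger SD. It was called with all 3 cultures (limma, adjusted p = 0.0201) but not without culture 2 (adjusted p = 0.148) or without culture 3 (adjusted p = 0.115). It was over the line in each culture. Rsph4a, the next in SD, had its cultures in the same order, 2 above 3 above 1. So did 7 of the 8 interneuron markers (Gad1 read 9.64, 10.67 and 10.37 (10.23 ± 0.53)). That order was seen in 27.0% of all genes tested, 33.8% of all genes above background and 8 of 45 motile genes (17.8%). The reverse order was seen in 12 of 45 motile genes (26.7%) and 17.8% of all genes tested. The mean of the 8 interneuron markers was 10.48, 10.91 and 10.78 in cultures 1, 2 and 3, and that of the 7 astrocyte markers 9.41, 8.47 and 9.04, so neuronal and astrocytic signal ran in opposite orders. Whether the make-up of the cultures has a part in the values of Cfap206 and Rsph4a was not tested.

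The unassigned Cfap genes were all well over background and close between cultures. Cfap20, a protein that closes the doublet microtubule in both kinds of cilia, read 10.49, 10.62 and 10.55 (10.55 ± 0.07). Cfap36 read 8.62, 8.77 and 8.70 (8.70 ± 0.08), Cfap410, known from photoreceptor and skeletal ciliopathies, 8.13, 8.28 and 8.22 (8.21 ± 0.08), and Cfap97 7.56, 7.77 and 7.62 (7.65 ± 0.11). In each of them culture 2 was the highest and culture 1 the lowest.

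**Figure D4:**
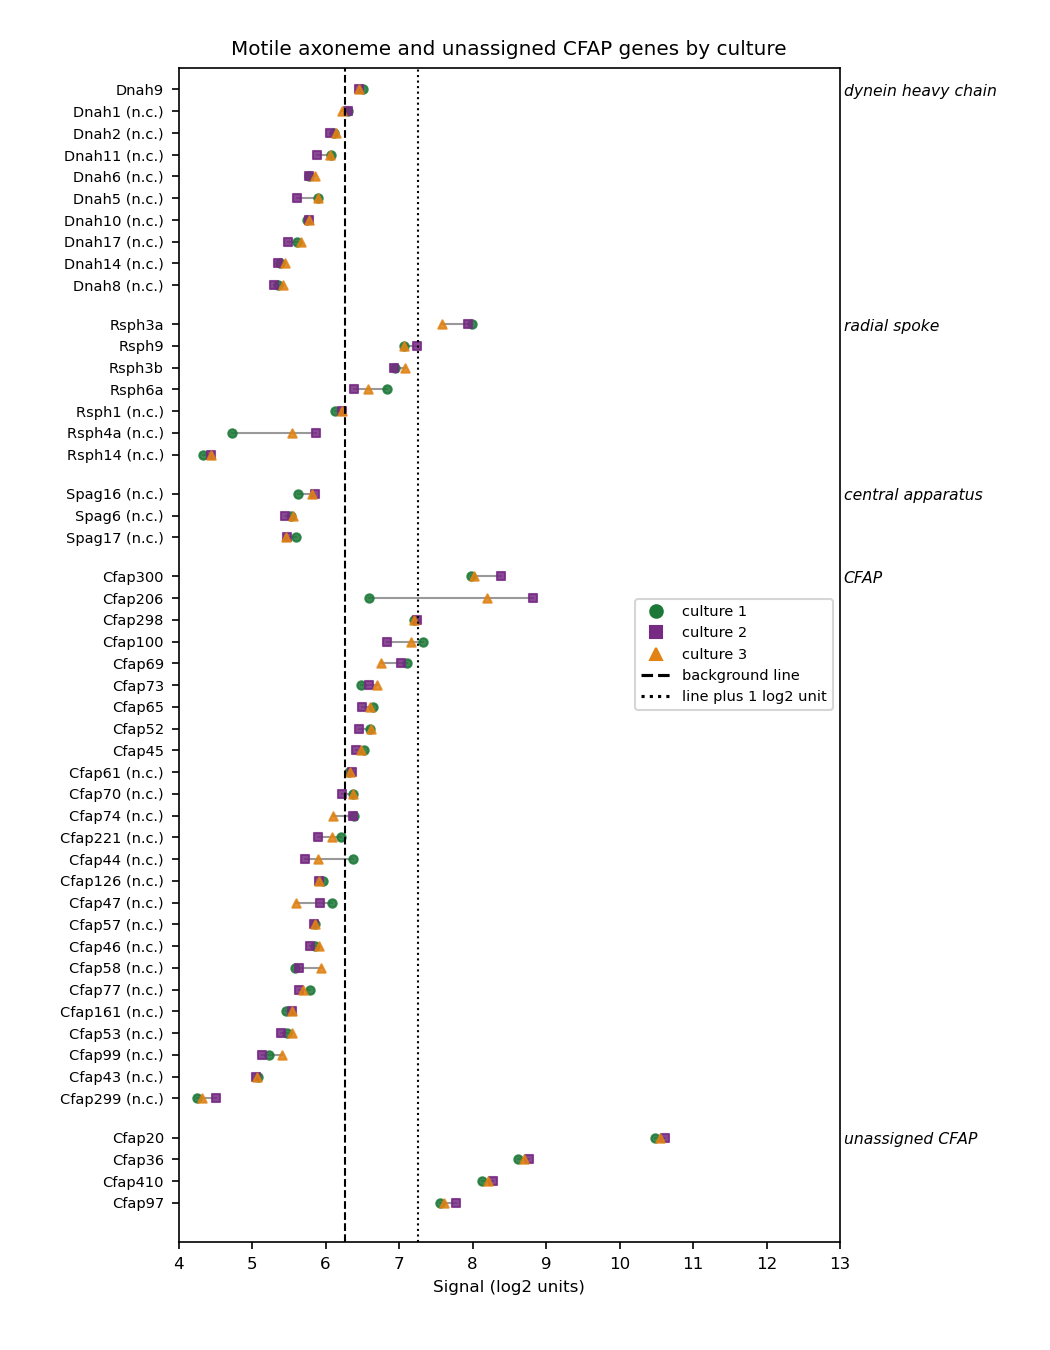
Signal (log2 units) of the 45 motile axoneme genes and the 4 unassigned Cfap genes in cultures 1 (circles), 2 (squares) and 3 (triangles); n.c. marks genes not called above background, the dashed line is background at 6.26 and the dotted line lies 1 log2 unit higher. Most motile genes sit at or left of the dashed line, the grey bar of Cfap206 spans 2.23 log2 units, and the unassigned genes lie right of the dotted line.

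For most members the cultures gave like values. The median SD was 0.10 for primary and 0.08 for motile genes, against 0.13 for all genes tested. A range over 0.5 log2 units was seen in 1 of 29 primary genes (Ift74) and 3 of 45 motile genes (Cfap206, Rsph4a and Cfap44), beside 13.8% of all genes. Of the primary genes, 19 were highest in culture 2 (65.5%) and 0 in culture 3, beside 51.6% and 15.5% of all genes above background. The median deviation of primary genes from their own mean was -0.05, 0.07 and -0.01 in cultures 1, 2 and 3, and that of all genes above background -0.02, 0.04 and -0.02. Motile genes were lowest in culture 2 in 23 of 45 cases (51.1%), beside 32.0% of all genes tested. Those not called were so in 16 of 31 cases, beside 45.1% of all genes not above background. Those called were so in 7 of 14, beside 24.4% of all genes above background. Primary genes and motile genes not called lean the same way as genes in general with the same call. The called motile genes do not, with a median deviation of -0.01 in culture 2 against 0.04 for all genes above background. The median lean of each group is within 0.1 log2 units. Among the 83 probe sets 8 (9.64%) had exactly the same deposited value in 2 cultures, as did 4.69% of all probe sets. Bbs10 and Dnah10 are examples, and such pairs make an SD small.

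**Figure D5:**
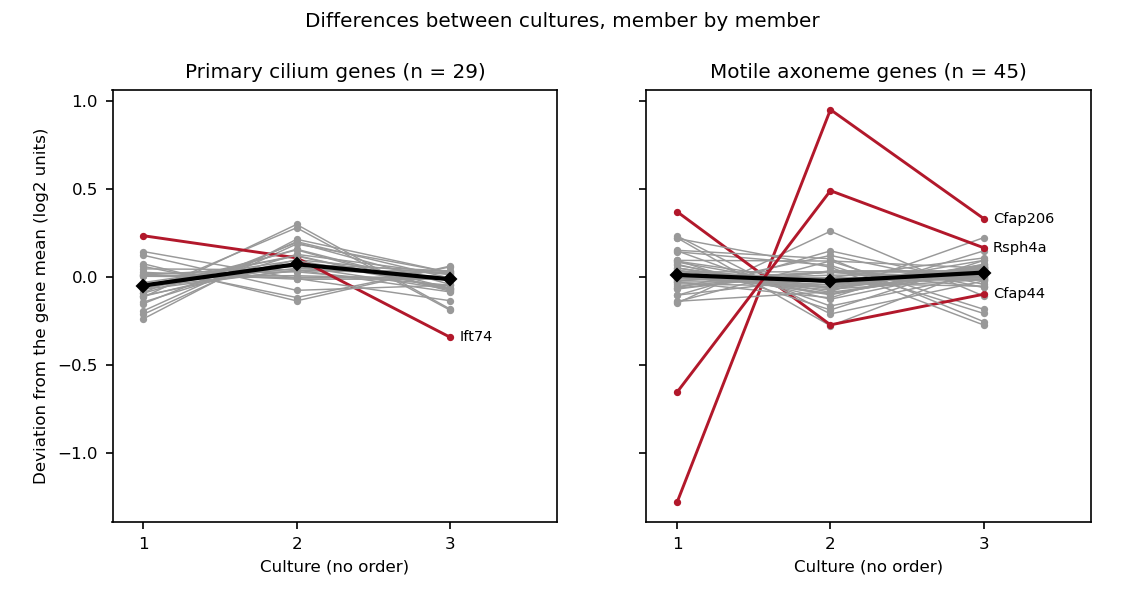
Deviation of each member from its own 3-culture mean (log2 units) in cultures 1 to 3, which have no order; grey and red lines join the values of 1 gene and black diamonds mark the median. The medians stay within 0.1 of 0, while Cfap206 and Rsph4a lie far below their means in culture 1.

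Other ciliary genes, which the choice of members did not match, were listed by function with earlier results of these data known. They split in the same direction, which is no independent check. Of 58 measured genes for primary cilium machinery, 56 were above background (96.6%, against 63.4% of all genes) and 43 with the margin (74.1%, against 47.6%). These were 13 of 14 further IFT and BBSome genes, from Wdr35 of IFT-A (9.38 ± 0.08) to Ttc30a2 (5.32 ± 0.12), which was not called. They also held 11 of 11 ciliary motor genes, among them Dynlrb1 (12.06 ± 0.02), a light chain of cytoplasmic dyneins at large. Of the transition zone and inversin genes 15 of 16 were called, Ahi1, the Joubert syndrome gene, at 9.71 ± 0.19 and Rpgrip1, a photoreceptor protein, not called at 5.75 ± 0.08. All 17 genes of basal bodies and ciliogenesis were called, Pcm1 of the centriolar satellites at 10.88 ± 0.11. Of 43 motile genes outside the choice of members, 17 were above background (39.5%) and 6 with the margin. They comprised 10 of 22 genes for dynein assembly, docking and regulation, a list that also held dynein chains such as Dnah7a. In it Dnaaf5 was highest (8.97 ± 0.22) and Dnaaf6 lowest (4.63 ± 0.13). The rest were 7 of 21 other axoneme genes, with Tppp3, a tubulin-binding protein also of oligodendrocytes, highest (8.31 ± 0.12) and Enkur lowest (4.23 ± 0.33).

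Genes listed as ciliary receptors and signalling proteins were called about as often as genes in general, 5 of 8 (62.5%) beside 63.4% of all genes. With the margin 3 of 8 passed (37.5%, beside 47.6%). Sstr3, the somatostatin receptor of neuronal cilia, read 7.26, 7.09 and 7.43 (7.26 ± 0.17). Htr6, a ciliary serotonin receptor, read 7.92, 7.26 and 7.76 (7.65 ± 0.34), and Gpr161, a brake on Hedgehog signalling, 8.44, 8.56 and 8.49 (8.50 ± 0.06). Npy2r, a neuropeptide Y receptor, lay at 7.75 ± 0.33 and the polycystin Pkd1 at 9.30 ± 0.05. Mchr1, the melanin-concentrating hormone receptor, read 5.99, 6.92 and 6.47 (6.46 ± 0.47) and was not called (adjusted p = 0.275), and neither were Drd1 (5.81 ± 0.22) and Pkd2l1 (5.76 ± 0.11). Adcy3, the adenylyl cyclase used to stain neuronal cilia, had no probe set of its own.

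Regulators of ciliogenesis and the RFX genes listed with them lay near genes in general. Of these, 12 of 17 were called (70.6%, beside 63.4% of all genes) and 7 of 17 with the margin (41.2%, beside 47.6%). All 6 RFX genes that were listed were called: Rfx7 (10.17 ± 0.08), Rfx4 (9.59 ± 0.10), Rfx3 (9.14, 8.94 and 8.94), Rfx1 (8.57 ± 0.02), Rfx5 (8.50 ± 0.10) and Rfx2 (7.14 ± 0.21). Foxj1, the master factor of motile cilia, read 7.35, 7.97 and 6.98 (7.43 ± 0.50) and was called (limma, adjusted p = 0.00376), also when any 1 culture was left out, but not with the margin. The factors that commit cells to many cilia were at or near the line, with Mcidas (6.55 ± 0.04) called and Gmnc (5.86 ± 0.10) and Ccno (5.83 ± 0.02) not. E2f4 (9.34 ± 0.11), E2f5 (10.16 ± 0.20) and Myb (7.39 ± 0.08), which also serve the cell cycle, were called, and Trp73 (6.27 ± 0.11) was not. Of genes for the mass production of centrioles, Deup1 (5.91 ± 0.13) and Cdc20b (5.96 ± 0.25) were not called and Ccdc78 (6.86 ± 0.18) was.

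Markers of brain cells that carry motile cilia were set beside the 63.4% of all genes called. Of 10 ependymal markers 3 were called (Foxj1, Tppp3 and Ccdc153) and 1 with the margin (beside 47.6%), and the mean of the list was 6.46, 6.42 and 6.28 in cultures 1, 2 and 3. All of these markers but Mia are also in the axoneme or regulator lists above, so they are no separate check. Ccdc153 lay at 7.46 ± 0.27, while Tmem212, Dynlrb2, Tekt1 and Hydin were below the line in all cultures. Of 7 choroid plexus markers 2 were called (Otx2 and Aqp1), and Ttr, the leading product of that tissue, read 6.58, 6.34 and 7.50 (6.81 ± 0.61) and was not called (adjusted p = 0.0741). The part of such cells in the motile calls was not tested.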

How the data were processed

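The deposited values were log2 probe set signals that the authors had normalized; the submitters' processing notes name oligo and RMA, with versions not given in the sources used here. Of 41345 probe sets, 23521 carried 1 gene symbol in the platform annotation, 1814 several and 16010 none, and all 78 member genes matched the RefSeq gene table by gene ID. Cultures correlated at 0.983 to 0.991 (Pearson, across probe sets), and signals ran from 2.07 to 13.9, with array medians of 6.52 to 6.57.

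An intercept-only model was fitted to the 22081 probe sets left after the background families were taken out (R 4.3.3, limma 3.58.1), and the moderated statistic was taken against the line, 1-sided. The probe set with the highest mean stands for a gene, and a gene was called if any of its probe sets was. On simulated data 38, 47, 50 and 50 of 50 probe sets raised by 0.25, 0.5, 1 and 2 log2 units over the line were called. Alternatives were other lines, a margin of 1 log2 unit, another background family, quantile and median scaling, an intensity trend, the mean of probe sets, a filter on dim probe sets, a plain count of cultures and leaving out each culture. Genes were named by class: the called members with the highest means, up to 4, and the others with the lowest, up to 3; the 10 members with the largest SD; members whose call depended on 1 culture; members whose probe sets disagreed; all regulators and receptors; and the extremes of the other lists. Further genes were named to show a class whole, after their values were seen. Members and lists were chosen with earlier results of these data known.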

Additional observations from a re-analysis of the deposited data

How the results depend on the processing

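The primary count stayed at 24 to 29 of 29 under every setting tried. The motile count was 14 under quantile or median scaling, an intensity trend, the mean of probe sets and the filter on dim probe sets, and 15 when every culture had to exceed the line. It was 2 at the 99th percentile, 22 at the 90th, 2 with skin and defensin families as background, 2 with the margin and 5 of 20 without the Cfap genes. Without the Ift genes the primary count was 15 of 15. For all members 30 of 78 were called with the skin families and 30 with the margin, and for the genes of the other ciliary lists 59 and 59, beside 90 as reported above. Leaving out 1 culture gave 28 to 29 primary genes, 10 to 14 motile genes, 43 to 46 members and 88 to 91 genes of the other lists. No paired analysis was possible because the 3 cultures form 1 group. With the skin families 47.6% of all genes were called.

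A higher line by construction puts some means under it. At the 99th percentile the mean minus the line was -0.62 for Dnah9, -0.11 for Rsph3b, -0.50 for Rsph6a, -0.39 for Ift74, -0.51 for Cfap73, -0.63 for Cfap45, -0.24 for Ccdc78 and -0.55 for Mcidas. With the skin families it was -0.81 for Dnah9, -0.16 for Rsph9, -0.30 for Rsph3b, -0.68 for Rsph6a, -0.070 for Cfap298, -0.17 for Cfap100, -0.58 for Ift74, -0.69 for Cfap73, -0.81 for Cfap45, -0.023 for Sstr3, -0.15 for Rfx2, -0.43 for Ccdc78 and -0.73 for Mcidas. With the margin it was -0.79 for Dnah9, -0.13 for Rsph9, -0.27 for Rsph3b, -0.66 for Rsph6a, -0.048 for Cfap298, -0.15 for Cfap100, -0.56 for Ift74, -0.67 for Cfap73, -0.79 for Cfap45, -0.00086 for Sstr3, -0.12 for Rfx2, -0.40 for Ccdc78 and -0.71 for Mcidas.

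Signal over background limits the motile calls: only 2 of the 14 passed with the margin, and a gene not called may still be transcribed at a low level or in few cells. Probe sets of close copies, such as Rsph3a and Rsph3b, may share signal.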

Other observations

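Odf1, a protein of the outer dense fibres of the sperm tail, read between 11.91 and 12.08 in the 3 cultures, far over the background line, whereas the other 5 testis germ cell markers (Prm1, Tnp1, Acrv1, Akap4 and Ddx4) were not called. Which transcripts the Odf1 probe set reads was not tested.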
